A study of Oryza sativa with 3 samples.

Results

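The sugar transporter genes of rice leaf were chosen by name: a probe set (a group of short probes on the array that together measure one transcript) belonged if its single annotated gene carried a SWEET, SUT, MST, TMT, PGLCT or TPT name. The rule took 25 of 57194 probe sets, which measure 20 of 17905 genes. These were 12 SWEET, 4 SUT, 2 MST, 1 TPT and 1 TMT gene, and no gene carried a PGLCT name. The TMT gene (LOC4330437) is not a sugar transporter: its other names, G-TMT and VTE4, are those of gamma-tocopherol methyltransferase, an enzyme of vitamin E synthesis. Its values are given once, and the counts that follow cover the 19 transporter genes, a choice made from the names after the values had been seen. OsSWEET3a and OsSWEET13 were not the single annotated gene of any probe set and were not analysed here. Family members listed without such a name were not sought, so counts by family cover the named genes only.

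The samples were leaves of Kitaake, a japonica rice cultivar with a short life cycle, from greenhouse plants 6 weeks old. All 3 replicates, grown side by side, form 1 group, with 1 Affymetrix rice array each and no treatment, mutant or time point to set against it. The labels do not say how many plants a replicate held, which leaf was taken or at what hour, so the spread between arrays may be technical. Values are log2 signals, on which a difference of 1 is 2-fold, given as mean ± SD over n = 3 arrays. Since probes differ in how strongly they bind, signals of different genes do not give the order of their transcript levels. The highest signals of a family only decided which genes are described array by array. In whole leaves, fewer cells of a type and less RNA per cell cannot be told apart.

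Leaves make sucrose from the carbon fixed in chloroplasts and send it out through the phloem. The triose phosphate translocator TPT moves triose phosphates out of the chloroplast in exchange for phosphate, and sucrose is then made in the cytosol. SUT proteins carry sucrose across membranes together with protons, MST proteins carry hexoses together with protons, and SWEET proteins let sugars pass down their gradient without protons. SWEET proteins fall into clades. Members of the first and second clades mainly carry hexoses, those of the third carry sucrose, and those of the fourth sit in the vacuolar membrane in Arabidopsis. Bacterial blight of rice is known for switching on SWEET genes of the third clade in the leaf.

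A gene was called above background on an array if its signal passed the 95th percentile of the 64 reporter probe sets, controls placed on the array for reporter genes. This bound was 5.64, 5.60 and 5.77 on replicates 1, 2 and 3, and the choice of bound was made with earlier results of these data known. Of the 19 transporter genes 12 (63.2%) were above background on all 3 arrays, against 74.3% of all 17905 genes. A further 3, all SWEET genes, passed the bound on some arrays, and 4 passed it on none. By family, 7 of 12 SWEET genes, 3 of 4 SUT genes, 1 of 2 MST genes and the TPT gene were above background throughout. All 6 measured genes of a leaf mesophyll list were above background on every array, with mean signals from 13.29 to 14.66. Of lists for other organs, 2 of 3 root genes, 2 of 2 shoot meristem genes, 1 of 4 anther genes and 3 of 3 seed genes were also above background on every array. Their part in the transporter signals was not tested.

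**Figure D1:**
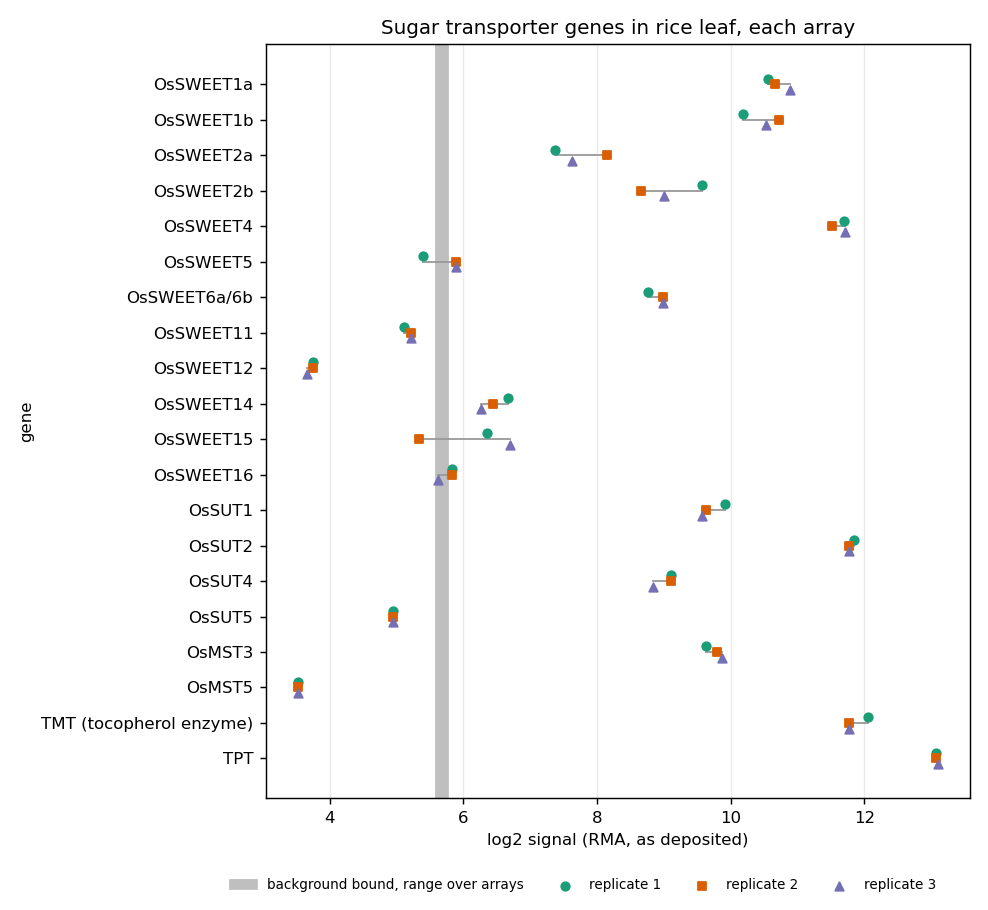
Log2 signal of the 20 genes matched by name, one row per gene, with one point per replicate array and a grey band for the background bound, which ran from 5.60 to 5.77 over the arrays. OsSWEET5 and OsSWEET15 have points on both sides of the band, the lowest point of OsSWEET16 lies within it, and the TMT gene is the tocopherol enzyme that shares the name pattern.

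TPT (LOC4326365) had signals of 13.06, 13.07 and 13.10 on replicates 1, 2 and 3 (13.08 ± 0.02). The arrays lay within 0.04 of each other. A second probe set of the same gene had 4.68, 4.68 and 4.97, below background on every array. The first probe set alone places the gene above background, and no difference is given against the second, which has no level above the bound.

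Among the sucrose carriers, OsSUT2 (LOC9266530), which exports sucrose from the vacuole, had signals of 11.84, 11.77 and 11.77 (11.79 ± 0.04). The 3 arrays differed by no more than 0.07. Its second probe set had 6.33 on all 3 arrays, also above background but 5.46 lower, and the mean of both was 9.06. The reference also gives SUT2 as an older name of OsSUT4 (LOC4331221), and the values were assigned by gene identifier. OsSUT4 had 9.11, 9.11 and 8.84 (9.02 ± 0.16), with replicate 3 lowest.

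OsSUT1 (LOC4331775), a sucrose-proton symporter known from phloem transport and grain filling, had 9.91, 9.63 and 9.58 (9.71 ± 0.18). Replicate 1 was the highest, and the range was 0.34. OsSUT5 (LOC4329756), another sucrose-proton symporter, had 4.94 on all 3 arrays, below background on each. Equal values arise from the median polish step of the RMA method and do not mean an exact measurement.

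Of the monosaccharide carriers, OsMST3 (LOC4342198), a hexose-proton symporter of the plasma membrane, had 9.62, 9.80 and 9.87 (9.76 ± 0.13). All arrays were above background, with replicate 1 lowest. OsMST5 (LOC4344808), known from florets and pollen, had 3.52 on all 3 arrays and was below background on each.

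Within the first SWEET clade all 4 measured genes were above background on every array. OsSWEET1a (LOC4324848) had 10.56, 10.66 and 10.89 (10.70 ± 0.17), highest in replicate 3. Its second probe set had 7.06, 7.06 and 7.44, likewise highest in replicate 3 although 3.52 lower in mean. OsSWEET1b (LOC4338851) was at 10.48 ± 0.28, highest in replicate 2, with a range of 0.54.

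The 2 SWEET2 genes differed more between arrays. OsSWEET2a (LOC4326868) had 7.37, 8.15 and 7.62 (7.72 ± 0.39), highest in replicate 2 and lowest in replicate 1. OsSWEET2b (LOC4326923), a vacuolar sugar transporter whose structure has been solved, had 9.57, 8.66 and 9.00 (9.08 ± 0.46). It was highest in replicate 1 and lowest in replicate 2, the opposite order to OsSWEET2a. A second probe set of OsSWEET2b had 9.57, 8.75 and 9.00, in the same order. It is of the _x_at type, whose probes may also bind other transcripts, and the 2 probe sets may share probes.

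In the second clade, OsSWEET4 (LOC4329093), a hexose transporter needed for grain filling, had 11.69, 11.51 and 11.71 (11.64 ± 0.11). Replicate 2 was lowest, and the range was 0.20. A single annotated gene (LOC4324213) carries the names OsSWEET6a and OsSWEET6b, and it was at 8.92 ± 0.13. OsSWEET5 (LOC4339772), which has been linked to galactose transport and leaf senescence, had 5.40, 5.89 and 5.89. It was below the bound in replicate 1 and above it in the other two.

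The third clade holds the sucrose carriers that bacterial blight exploits, and 1 of its 4 measured genes was above background on all arrays. This was OsSWEET14 (LOC4350572), a target of bacterial blight effectors, with 6.66, 6.45 and 6.27 (6.46 ± 0.20). Its second probe set, also of the _x_at type, had 7.16, 6.79 and 6.79. Replicate 1 was highest on both, which may share probes. With the highest reporter of each array as the bound, 11 transporter genes passed on all arrays, and the used probe set of OsSWEET14 was not among them. The share of all genes passing that bound was not counted. OsSWEET11 (LOC4346153), also named XA13 after the blight resistance gene and known for loading sucrose into the grain, had 5.12, 5.21 and 5.21. It was below background on every array, and its only probe set is of the _s_at type, whose probes match more than one transcript. OsSWEET12 (LOC4332825) was at 3.73 ± 0.05, also below background on every array.

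OsSWEET15 (LOC4329464), which acts with OsSWEET11 in filling the rice grain, had 6.35, 5.33 and 6.69 on replicates 1, 2 and 3 (6.12 ± 0.71). Replicates 1 and 3 were above background, and replicate 2 was below its bound of 5.60. Since the lowest value lies below the bound, the difference is given as a lower limit: replicate 3 was at least 2.14-fold above replicate 2, and replicate 1 at least 1.69-fold. These limits depend on the bound chosen. The highest reporter was at 6.51 on replicates 1 and 2 and at 6.59 on replicate 3. Against it replicate 1 was below the bound as well, replicate 3 passed narrowly, and neither limit holds. The measured range was 1.36. OsSWEET15 has 1 probe set, so no second probe set could be compared.

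OsSWEET16 (LOC4332795), the measured gene of the fourth clade, had 5.83, 5.83 and 5.61. It passed the bound on replicates 1 and 2 but not on replicate 3, where its signal was 0.22 lower and the bound higher. The tocopherol methyltransferase gene taken in by its TMT name had 12.06, 11.76 and 11.77 (11.86 ± 0.17), above background throughout and highest in replicate 1.

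The next question was how far the replicates differed in these genes. OsSWEET15 was the 1 transporter gene of 19 that spanned 2-fold or more between arrays, and 1% of all genes did so. With the bar at 1.5-fold, a level added after the values had been seen, there were 3 (OsSWEET2a and OsSWEET2b besides OsSWEET15), against 5.64% of all genes. OsSWEET2b lay just under 2-fold with a range of 0.91. The median range was 0.24 over the 19 transporter genes and 0.36 over the 12 SWEET genes, against 0.16 over all genes. Without replicate 1 it was 0.0947 over the transporters and 0.20 over the SWEET genes, against 0.11 over all genes, so that the transporters were then below all genes. Without replicate 2 these medians were 0.24, 0.29 and 0.11, and without replicate 3 they were 0.18, 0.22 and 0.0385. Among the other families no gene had a range above 0.34. Each of the 3 genes spanning 1.5-fold or more had replicate 2 at one end: OsSWEET15 and OsSWEET2b were lowest there and OsSWEET2a highest. Of 3 arrays 2 always lie at an end, so this alone does not single out replicate 2. Without replicate 2 none of the 19 genes spanned 1.5-fold or 2-fold. Leaving out an array at one end narrows a range by construction, so this does not single out replicate 2 either. Without replicate 1, OsSWEET15 alone (1 gene) spanned 1.5-fold. The same counts with a replicate left out were not made over all genes.

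**Figure D2:**
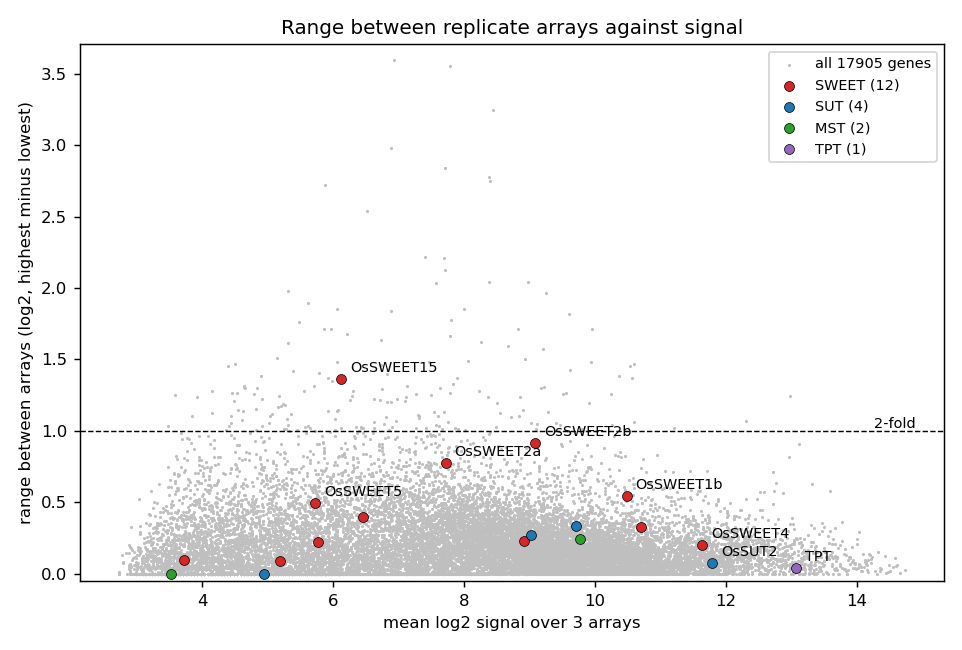
Range between the 3 arrays (log2, highest minus lowest) against mean log2 signal, with all 17905 genes in grey, the transporter genes coloured by family, and a dashed line at 2-fold. OsSWEET15 lies above the line at 1.36, OsSWEET2b just below it at 0.91, and OsSUT2 and TPT near the bottom at 0.07 and 0.04.

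The transporters were divided over the arrays in direction. Compared with the mean of the other arrays, each replicate was higher in 9 genes, lower in 8 and equal in 2, with a median difference of 0.00. Over all genes the shares were uneven: 52.0% were higher and 33.8% lower in replicate 1, 58.3% higher and 27.4% lower in replicate 2, and 25.1% higher and 60.6% lower in replicate 3. A single highest array was found for 12 genes: replicate 1 for 4, replicate 2 for 3 and replicate 3 for 5. Over all genes these arrays were highest in 23.6%, 28.8% and 17.4%. The other 7 transporters had a tie for the highest value. Poly-A spike controls are RNAs that can be added to a sample in known amount, and whether they were added here was not checked. Their probe sets stood above the other arrays in replicate 2, by a median of 0.29 over 36 probe sets. The median differences were -0.10 in replicate 1 and -0.19 in replicate 3. What part these differences had in the values of OsSWEET15, OsSWEET2a and OsSWEET2b was not tested.

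**Figure D3:**
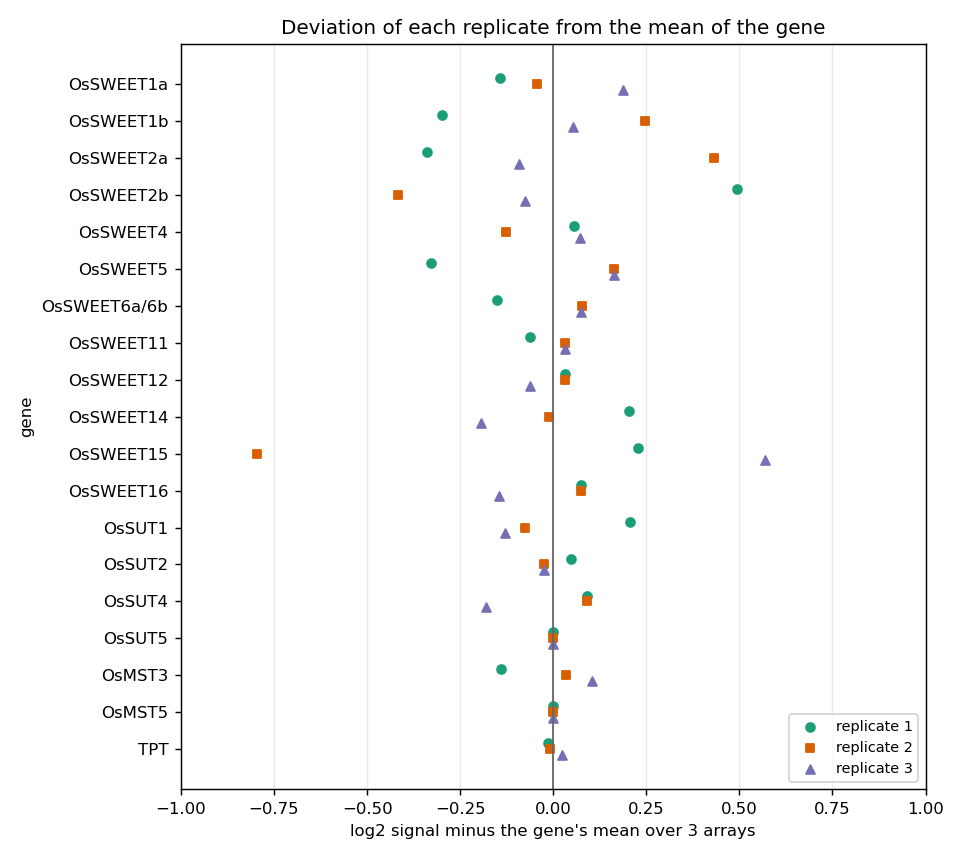
Log2 signal of each replicate array minus the mean of the gene, for the 19 transporter genes, one row per gene. Replicate 2 lies far left for OsSWEET15 and OsSWEET2b and right for OsSWEET2a, while OsSUT5 and OsMST5 had equal values on all arrays.

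Of the 19 transporters 5 had 2 probe sets, and for 3 of these (TPT, OsSUT2 and OsSWEET1a) the means of the probe sets lay 8-fold or more apart. Such gaps were common on the array: 36.9% of the 3444 genes with several probe sets had one between their highest and lowest means, values below background included. OsSWEET2b and OsSWEET14 had probe sets that differed by 0.03 and 0.46 in mean signal, with the _x_at probe set higher in both. In OsSWEET1a, OsSWEET2b and OsSWEET14 the same replicate was highest on both probe sets. For OsSWEET2b and OsSWEET14 the 2 probe sets may share probes, so they are not separate measurements. How often this held over all genes was not counted. The replicates could not be compared in this way for OsSUT2, whose second probe set had equal values, or for TPT, whose second probe set was below background.

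**Figure D4:**
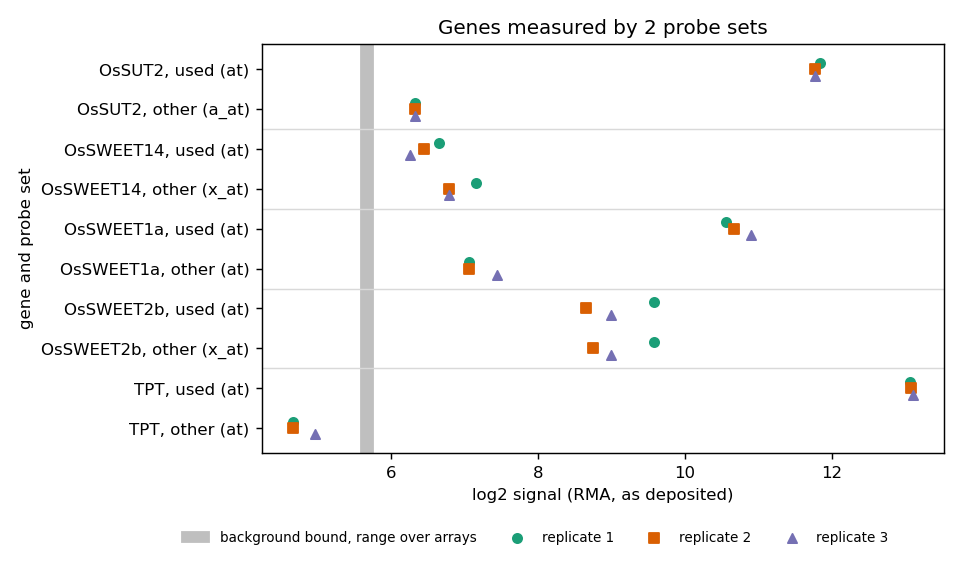
Log2 signal on each replicate array for the 5 transporter genes with 2 probe sets, with the probe set used for the gene above the other one and the background bound in grey. The second probe set of TPT lies below the bound and that of OsSUT2 at 6.33, while those of OsSWEET2b and OsSWEET14 lie near the one used, with means 0.03 and 0.46 apart.

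The transporters work beside the enzymes of sugar metabolism. A list of enzymes that make or split sucrose, hexose kinases and plastid translocators had 29 measured genes. Of these 22 (75.9%) were above background on all arrays, near the 74.3% of all genes, and 7 on none. None (0) spanned 2-fold, against 1% of all genes, and 1 spanned 1.5-fold, against 5.64%. That 1 was the hexokinase gene HXK3 (LOC4326516), at 5.23, 4.71 and 4.24, below background on every array and named after its values were seen. All 3 genes of phosphoenolpyruvate translocators of the plastid were above background, as were 4 of 5 genes of sucrose synthesis, 7 of 8 of hexose kinases, 5 of 7 of invertases and 3 of 6 of sucrose synthases. Another 5 genes shared a name pattern with the list but had, or could have had, another function, and were set aside from their names. With these included, 1 gene spanned 2-fold and 2 spanned 1.5-fold. The gene spanning 2-fold was PMT (LOC4325160), set aside, with a range of 1.26 and below background on every array.

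NIN3 (LOC4329537), a neutral invertase that splits sucrose inside the cell, had 12.40, 12.40 and 12.27. The plastid translocator PPT2 (LOC4345334) had 11.71 on every array. NIN1 (LOC4332650), another neutral invertase, had 9.69, 9.63 and 9.25, and the hexokinase HXK4 (LOC4342654) had 8.46, 8.48 and 8.06. Both were lowest in replicate 3. CIN2 (LOC4335790), the cell wall invertase also named GIF1 for grain filling, was at 3.75 ± 0.04 and CIN3 at 4.03 on all arrays, both below background, whereas the cell wall invertase CIN1 (LOC4329561) was at 10.93 ± 0.07. CIN4 (LOC4324001) at 9.16 ± 0.01 and CIN7 (LOC4346527) at 7.90 ± 0.20 were above background on every array, as was CIN1. These CIN genes were picked after their values were seen.

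**Figure D5:**
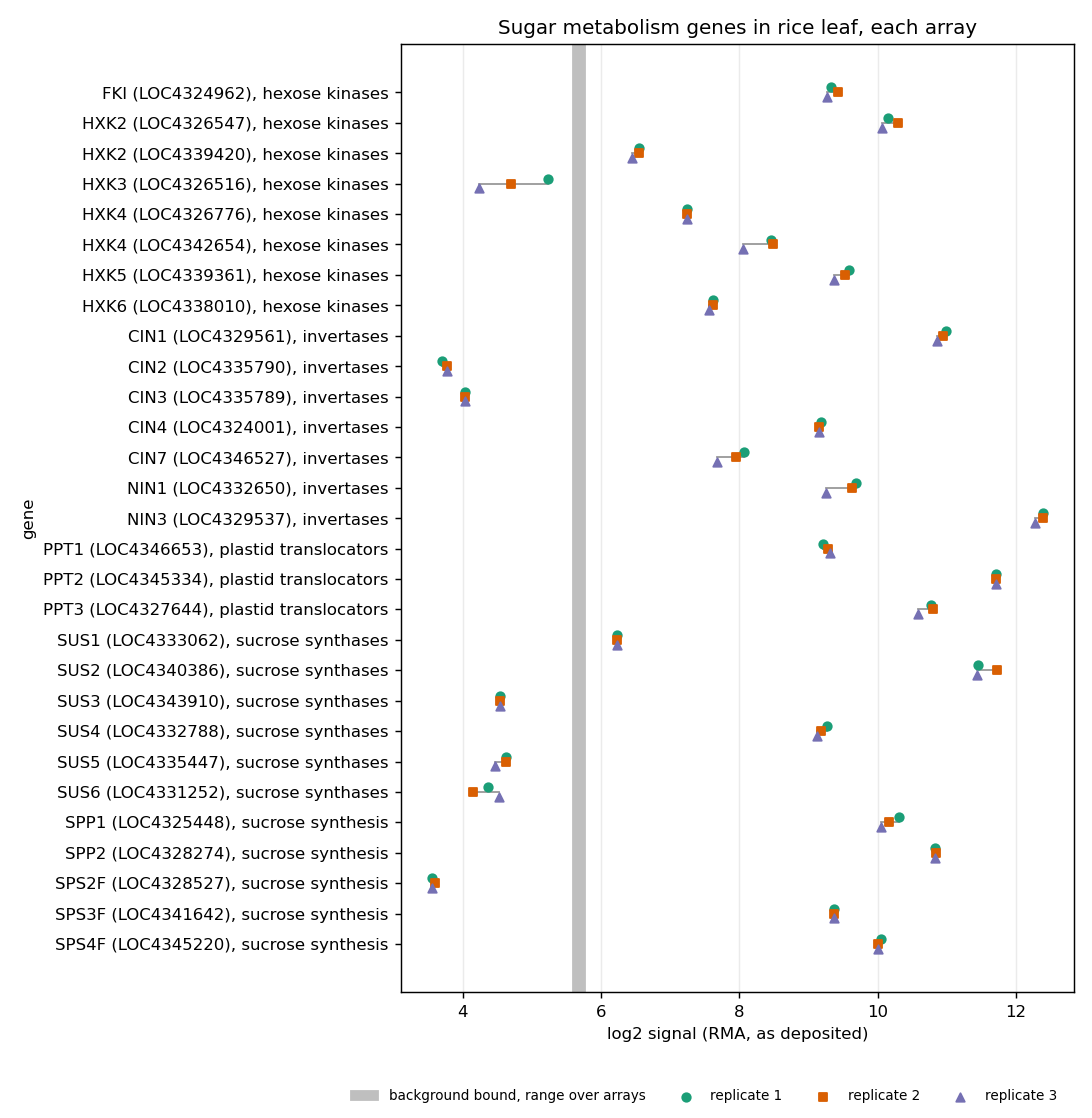
Log2 signal on each replicate array for the 29 genes of sucrose synthesis, sucrose synthases, invertases, hexose kinases and plastid translocators, one row per gene, with the background bound in grey. The 22 genes to the right of the band were above background on all arrays and the 7 to its left on none.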

How the data were processed

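Leaf RNA of 3 replicates was hybridised to 1 array each, and the number of arrays limits the precision. The authors deposited a log2 signal for each probe set, made with RMA per the submitters' processing notes; no version or setting is stated there. The columns had equal medians of 5.63. The table held 57381 probe sets, of which 187 were controls or reporters and were left out. The annotation gave 1 gene to 22436 probe sets, several to 95 and none here to 34663. The 17905 genes were named through RefSeq (ASM3414082v1), where all were found, and no coordinates or sequences are given. Where a gene had several probe sets, those ending in _x_at or _s_at were passed over if another existed, and the highest mean was used.

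The members and lists were chosen with earlier results of these data known. With 1 group there is no contrast, so counts, ranges and SDs are given without p-values, beside the same over all genes. Values within 1e-09 were taken as equal. Every matched gene is named. Values on each array are given for OsSUT2, OsSWEET15, members spanning 2-fold, and in each family the highest 2 in mean and widest 2 in range above background. Those of other members were added after their values were seen. From the metabolism list the same 2 and 2 are named. A planned comparison of protein sequences was not run. Counting was tested on simulated data with little noise and no tied values, so the handling of ties was not tested. Alternatives were quantile normalization again, median centring, other probe set rules, other background bounds, a filter on low values and leaving out each replicate. Python 3.11.15, numpy 2.4.6, pandas 2.3.3 and matplotlib 3.10.9 were used.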

Additional observations from a re-analysis of the deposited data

How the results depend on the processing

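No paired analysis was possible because all arrays belong to 1 group. The counts above background, 12 transporter genes and 22 sugar metabolism genes, stayed within 1.5 times under every alternative run. They did depend on the bound. With the median reporter as the bound, 17 of the 19 transporter genes and 26 of the 29 metabolism genes passed on all arrays. Most calls below background thus hold only for the stricter bounds. As a mean of its probe sets OsSUT2 was at 9.06 in place of 11.79. By the same rule TPT was at 8.93 in place of 13.08, with its second probe set below background. OsSWEET1a was at 8.95 in place of 10.70, and OsSWEET14 at 6.69 in place of 6.46. With only genes above background the median signal of the transporters was 9.73 in place of 8.92, and 0 genes spanned 2-fold, since OsSWEET15 leaves the list. After quantile normalization again fewer genes were tied, and all highest-array counts rose. Replicate 1 was then highest in 5 genes in place of 4, replicate 2 in 6 in place of 3, and replicate 3 in 7 in place of 5. Leaving out each replicate gave 0 to 1 gene spanning 2-fold, 0 to 3 spanning 1.5-fold, a median range of 0.0947 (without replicate 1) to 0.244, a median signal of 8.83 to 8.88 and 13 genes above background each time. The highest-array counts were then 6 to 7 for replicate 1, 8 for replicate 2 and 6 to 10 for replicate 3, out of 2 arrays. None of the counts under the alternatives was made over all genes, so shifts in them are not particular to the transporters. OsSUT2 ran from 11.77 to 11.80 and OsSWEET15 from 5.84 to 6.52. The 2-fold and 1.5-fold calls of the transporters ended without replicate 2, a count not made over all genes. Each called gene had replicate 2 at one end, so leaving it out had to narrow the range. Signal near background limits OsSWEET5, OsSWEET15 and OsSWEET16.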
